A study of Mus musculus with 6 samples.

Results

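The 8 genes described here make, inactivate or sense prostaglandins: the cyclooxygenases Ptgs1 and Ptgs2, the terminal synthases Ptges, Ptgis and Ptgds, the inactivating enzyme Hpgd, and the receptors Ptger2 and Ptgfr. They were chosen by name, with earlier results of these data known, and all 8 are among the 16494 genes of the count table. The cells came from the lower abdominal muscle of male FVB/N mice aged 9 to 10 weeks, 3 wild-type (WT) and 3 Aromhum, profiled by 10x Genomics 3' single-cell RNA sequencing. Aromhum mice carry the human aromatase gene CYP19A1 with its own promoters, so that androgen is turned into estrogen in their tissues, and the males develop scrotal hernia. The tissue was digested and passed through filters that hold back whole muscle fibers, so fiber RNA is represented only by fragments and nuclei. Human CYP19A1 had 0 UMIs in each WT library and 770, 797 and 787 UMIs in the Aromhum libraries.

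Cyclooxygenases convert arachidonic acid released from membranes into prostaglandin H2, with Ptgs1 the mostly constitutive form and Ptgs2 the form induced by cytokines and injury. Terminal synthases then make prostaglandin E2 (Ptges), prostacyclin (Ptgis) or prostaglandin D2 (Ptgds), which act on nearby cells through G protein-coupled receptors, among them EP2 (Ptger2) and FP (Ptgfr). Hpgd oxidizes prostaglandins and ends their action, and in muscle prostaglandin E2 is known as a signal to muscle stem cells.

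The 6 libraries held 63647 barcodes, 7905 to 10820 per WT mouse and 8979 to 13764 per Aromhum mouse, at medians of 4728.5 to 5897 and 6673 to 8727 UMIs per barcode. Mitochondrial genes took over 5% of the UMIs in 68.2% of the barcodes of WT replicate 2, against 27.6% to 40.1% in the other libraries, and 471 barcode sequences occurred in more than 1 library. The barcodes fell into 32 clusters, of which 4 matched no marker list and are called by their leading genes. Each of the others was named for the marker list it matched, so a name such as endothelial stands for endothelial-like cells. Fibroblast-like cells were 15.1% to 31.2% of the barcodes of a WT mouse and 33.3% to 47.4% of those of an Aromhum mouse. A level, in CPM, is a gene's UMI count scaled to a total of 1000000 over the cells of 1 type in 1 mouse, and the 3' protocol counts molecules without regard to transcript length.

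Ptgs1 lies at chr2:36230426-36252272 (plus strand), Ptgs2 at chr1:150100031-150108227 (plus strand) and Ptges at chr2:30889471-30929863 (minus strand) in GRCm38 (GENCODE vM21). The promoters of the 2 cyclooxygenases and of Ptges are shown because these genes carry the first and the prostaglandin E2 steps. Each runs from 250 bases before to 50 after the RefSeq start site in GRCm38.p6, 5′ to 3′ on the strand of the gene, with motif matches in capitals. The Ptgs1 window is chr2:36230176-36230475, plus strand, that of Ptgs2 chr1:150099781-150100080, plus strand, and that of Ptges chr2:30903248-30903547, minus strand.
Ptgs1: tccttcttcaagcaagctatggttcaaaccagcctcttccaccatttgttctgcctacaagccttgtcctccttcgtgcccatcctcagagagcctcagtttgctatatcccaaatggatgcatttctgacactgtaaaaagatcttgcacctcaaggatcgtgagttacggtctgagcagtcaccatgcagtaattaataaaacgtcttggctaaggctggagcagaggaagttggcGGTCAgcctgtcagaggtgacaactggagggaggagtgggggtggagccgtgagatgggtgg
Ptgs2: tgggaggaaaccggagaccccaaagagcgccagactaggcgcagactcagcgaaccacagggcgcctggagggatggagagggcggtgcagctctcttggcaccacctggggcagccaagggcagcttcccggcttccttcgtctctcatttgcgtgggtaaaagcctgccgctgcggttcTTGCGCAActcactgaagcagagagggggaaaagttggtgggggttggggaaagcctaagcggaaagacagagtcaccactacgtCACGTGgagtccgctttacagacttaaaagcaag
Ptges: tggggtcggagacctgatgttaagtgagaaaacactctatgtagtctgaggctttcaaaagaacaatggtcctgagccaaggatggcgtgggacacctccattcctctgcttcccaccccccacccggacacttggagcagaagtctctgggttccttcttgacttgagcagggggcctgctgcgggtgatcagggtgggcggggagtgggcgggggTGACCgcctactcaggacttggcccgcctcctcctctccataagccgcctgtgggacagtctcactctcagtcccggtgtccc

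Promoter windows were found for 7 of the 8 members, the exception being Ptgis. Both strands were searched for the motif TATAAA of core promoters, for the E-box motif CACGTG of helix-loop-helix factors, for GGTCA, which is an arm of the estrogen response element, for the whole palindromic element (that arm, any 3 letters and the arm on the other strand, so that each match also counts for the arm), and for TGACGTCA (a cyclic AMP response element), TTGCGCAA (bound by C/EBP factors) and the NF-kB consensus. The Ptgs2 window held TTGCGCAA with its first base at -69 from the start site, a motif found in 0.184% of all promoter windows, and CACGTG at 17, found in 7.17%. Ptgs1 held 1 GGTCA, at -12, and Ptges held 1 on the other strand, at -33, where 40.5% of all windows hold at least 1. Ptgfr held 2, at -170 (on the other strand) and 4. Hpgd held TATAAA at 5 and Ptgds the NF-kB consensus at -22, which 13.6% and 8.49% of all windows hold. None of the 7 windows held the whole estrogen response element, which 0.0707% of all windows hold. These matches describe letters in the windows only.

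The members differed in which of the 14 named cell types held their highest mean level, and some shared a type. Ptgs2 and Hpgd were highest in fibroblast-like cells, Ptges and Ptgfr in perineurial cells, Ptgis and Ptgds in mesothelial cells, Ptgs1 in endothelial cells and Ptger2 in dendritic cells. Mean Ptgs2 in fibroblast-like cells was 557 and 674 CPM in WT and Aromhum mice. In perineurial cells it measured 204 ± 23 CPM in WT and 469 ± 203 CPM in Aromhum mice (SD, n = 3 each), and in macrophages 194 ± 104 CPM in WT and 661 ± 215 CPM in Aromhum mice (SD, n = 3 each). The last 2 types lay within their spread of each other in both genotypes. Over all 6 mice, Ptgis averaged 863 ± 223 CPM in mesothelial cells, the lining of the abdominal cavity, and 286 ± 57.5 CPM in fibroblast-like cells (SD, n = 6).

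For each gene the highest type was then set beside the next, mouse by mouse, as a description with no p, since the types were picked from the same mice. Ptgis was higher in mesothelial than in fibroblast-like cells in 6 of 6 mice (difference 1.57 on the log2 scale). Ptges was higher in perineurial-like than in fibroblast-like cells in 6 of 6 mice (difference 0.55), at means of 90.2 and 60.8 CPM. Perineurial cells form the sheath of nerve bundles, but this type of 930 barcodes need not be nerve sheath alone. At a clustering resolution of 1.2, 529 barcodes were named perineurial. A cluster of 401 led by Apod and Cxcl5 was named fibroblast-like there. The part of such cells in the perineurial levels of Ptges and Ptgfr was not tested. For the other 6 genes the mice did not all share 1 order. Ptgs1 averaged 69.1 CPM in endothelial and 68.5 CPM in mesothelial cells (endothelial higher in 4 of 6 mice), and Hpgd averaged 69.4 CPM in fibroblast-like and 53.2 CPM in mesothelial cells (fibroblast-like higher in 4). Ptgds, the brain-type prostaglandin D synthase, averaged 21.7 CPM in mesothelial cells and 21.3 CPM in muscle stem cells and myoblasts (mesothelial higher in 3).

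The receptors were scarce. Ptger2 averaged 17.2 CPM in dendritic cells and 9.21 CPM in macrophages (dendritic higher in 5 of 6 mice), and its 505 UMIs in all libraries limit every statement about it. Ptgfr averaged 12.3 CPM in perineurial and 11 CPM in fibroblast-like cells (perineurial higher in 4 of 6 mice). The plot of mean levels by cell type shows these orders side by side.

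**Figure D1:**
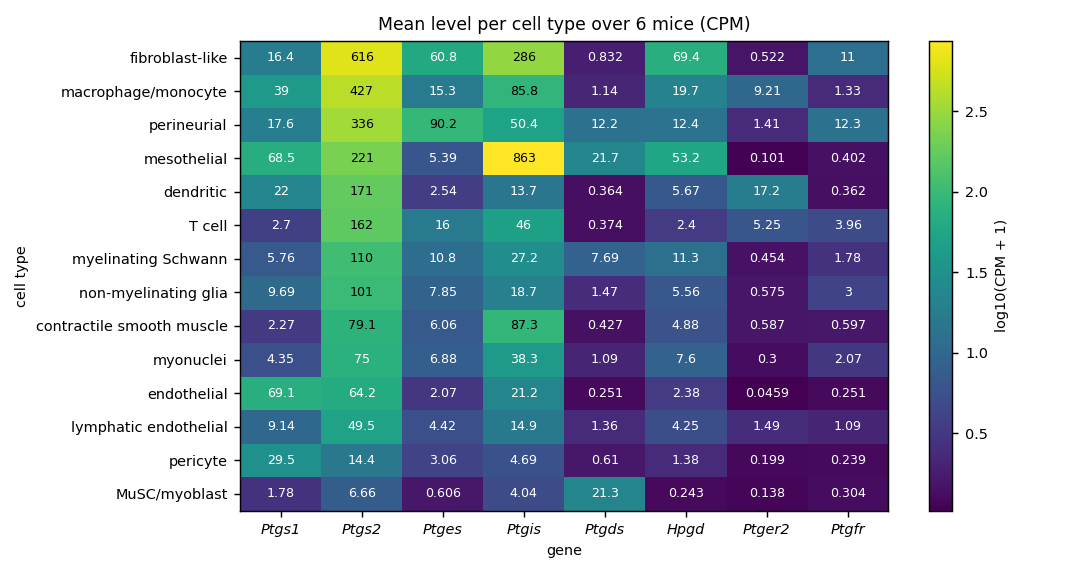
Mean level of each of the 8 genes (columns) in each of the 14 named cell types (rows), in CPM over 6 mice, with color on a log10(CPM + 1) scale. Ptgs2 and Ptgis reach the highest levels, Ptgs2 at 616 CPM in fibroblast-like and Ptgis at 863 CPM in mesothelial cells.

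Among the 14 types, the profiles most like that of each member were taken by Pearson's r of log2(CPM + 1), as a description. Ptgs2 was nearest to the interferon-inducible genes Ifi211 (r = 0.928) and Ifi204 (r = 0.92), followed by Sulf2. Ptgs1 was nearest to Hacd4 (r = 0.926), Hpcal1 and Dab2, Hpgd to Nova1 (r = 0.933), Gaa and the collagen gene Col14a1, and Ptgds to the muscle receptor kinase gene Musk (r = 0.847), Slc16a1 and Igf2bp2. Ptges was nearest to Dnm1 (r = 0.952), Dpep1 and the matrix gene Lum, and Ptgis to Vegfd (r = 0.936) and the complement genes C3 and Cfb. The genes near Ptger2 included the leukocyte genes Cd200r4 (r = 0.956) and Itgb2, and Ptgfr was nearest to Adamtsl2 (r = 0.975), Olfml3 and Dpep1. All types in a mouse share 1 library, so these values are not independent.

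Summed over all cells of a mouse, Ptgis was the member that differed between genotypes. Ptgis measured 155, 99.1 and 96.8 CPM in the 3 WT mice and 309, 360.1 and 298 CPM in the 3 Aromhum mice. The lowest Aromhum mouse lay above the highest WT mouse (log2 fold change 1.49 ± 0.23 (SE), adjusted p = 0.018, edgeR), where 23.6% of all genes tested passed the same threshold of 0.05 and 46.6% of those at 1 CPM or more did not overlap. Ptges, at 23 ± 5.76 CPM in WT and 39 ± 6.34 CPM in Aromhum mice (SD, n = 3 each), missed it (log2 fold change 0.79 ± 0.24 (SE), adjusted p = 0.0569), as did Ptgs2, at 239 ± 142 CPM in WT and 505 ± 229 CPM in Aromhum mice (SD, n = 3 each) (log2 fold change 1.11 ± 0.56 (SE), adjusted p = 0.189). The call for Ptgis was lost without WT replicate 2, WT replicate 3, Aromhum replicate 1 or Aromhum replicate 2, at log2 fold changes of 1.37, 1.37, 1.51 and 1.39. Within the study's limits on cells the log2 fold change fell to 0.60 (adjusted p = 0.48). In each of these settings at most 2 of all genes passed.

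In a sum over all cells, more cells of a type and more RNA per cell cannot be told apart. Mesothelial cells held 13.7% ± 6.72 (SD, n = 3) in WT and 33.1% ± 4.14 (SD, n = 3) in Aromhum mice of the Ptgis UMIs, and numbered 149, 173 and 68 cells in WT mice against 662, 1008 and 676 in Aromhum mice. With every mouse given the same mix of cell types, the ratio of the Aromhum to the WT mean of Ptgis fell from 2.76 to 1.44, and that of Ptges from 1.7 to 1.06. The ratio of Ptgs2 fell from 2.12 to 1.38. Those of Hpgd and Ptgfr moved from 0.746 to 0.418 and from 0.964 to 0.609. At equal mix Ptgis measured 179, 148 and 181 CPM in the 3 WT mice and 249.9, 247 and 235 CPM in the 3 Aromhum mice.

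Fibroblast-like cells held 77.7% ± 7.86 (SD, n = 3) in WT and 88.7% ± 2.21 (SD, n = 3) in Aromhum mice of the Ptges UMIs and 73.2% ± 10.4 (SD, n = 3) in WT and 76.2% ± 1.86 (SD, n = 3) in Aromhum mice of those of Ptgs2. They held 83.4% ± 5.11 (SD, n = 3) in WT and 84.1% ± 2.96 (SD, n = 3) in Aromhum mice of the Hpgd UMIs. For Ptgs1 the largest WT share was endothelial, at 51.5% ± 9.53 (SD, n = 3) in WT and 30.7% ± 16.2 (SD, n = 3) in Aromhum mice, and the mesothelial share was 6.38% ± 5 (SD, n = 3) in WT and 23.7% ± 5.79 (SD, n = 3) in Aromhum mice. Mesothelial cells held 0.718% ± 0.18 (SD, n = 3) in WT and 7.45% ± 3.01 (SD, n = 3) in Aromhum mice of the Ptgs2 UMIs.

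**Figure D2:**
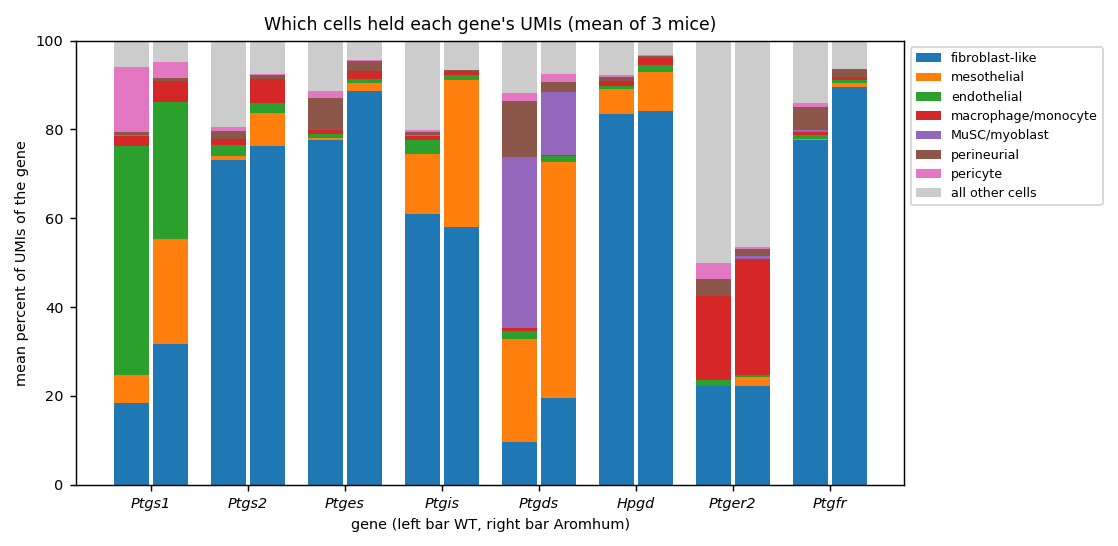
Mean percent of the UMIs of each gene held by each cell type, with WT on the left and Aromhum on the right of each pair of stacked bars (n = 3 mice each). The mesothelial part of Ptgis is 13.7% in WT and 33.1% in Aromhum mice.

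Summed over the fibroblast-like cells of a mouse, Ptgfr, the receptor for prostaglandin F2α, fell, and the other 7 members did not pass the test. Ptgfr measured 12.8, 14.6 and 13.9 CPM in the 3 WT mice and 10.3, 7.73 and 6.69 CPM in the 3 Aromhum mice. Every WT mouse lay above every Aromhum mouse (log2 fold change -0.74 ± 0.18 (SE), adjusted p = 0.0427), and 13.9% of all genes passed in these cells, while 36.9% did not overlap. Without any 1 of WT replicates 1 to 3 or Aromhum replicates 1 and 2 the adjusted p lay above the threshold, over a range of 0.0263 to 0.132 for all 6 omissions at log2 fold changes of -0.97 to -0.60, and within the study's limits on cells it was 0.181 (log2 fold change -0.73).

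The fibroblast-like cells of the mice differed in their make-up, and the part of that mix in the Ptgfr value was not tested. When these cells were clustered again, the tenocyte group, where Ptgfr measured 15.3 and 17.8 CPM in WT and Aromhum mice, was 21.2, 21.1 and 22.1% in WT mice against 2.78, 3.78 and 11.4% in Aromhum mice of the fibroblast-like cells. Every WT mouse lay above every Aromhum mouse in that share. It does not cover all cells with tenocyte markers. An unnamed cluster led by Tnmd and Fmod, with Comp and Scx, lay outside the fibroblast-like cells. That cluster was on average 2.83% of the barcodes of WT mice and 2.51% of those of Aromhum mice. The group marked by Tppp3 and Ccl11, where Ptgfr measured 15.5 and 15 CPM, was 32.7, 48.9 and 46.4% in WT mice against 12.2, 7.47 and 33.7% in Aromhum mice. The Dmknhi group, where Ptgfr measured 1.77 and 1.23 CPM, was 21.9, 12.3 and 11.7% in WT mice against 20, 24.9 and 18.2% in Aromhum mice. In both of these shares the genotypes overlapped. Ptgfr measured 18.4 and 17.6 CPM in the unnamed group led by Igfbp2 and Fam213a. That group was 8.46, 7.57 and 9.3% in WT mice against 0.723, 0.842 and 3.58% in Aromhum mice, without overlap. Of groups not tested, the Esr1hi hernia-associated fibroblasts numbered 101, 51 and 15 cells in WT mice against 1486, 1911 and 616 in Aromhum mice. An unnamed group led by Ahsg and Cxcl5 numbered 19, 14 and 14 cells in WT mice against 564, 553 and 287 in Aromhum mice. Ptgfr levels in the groups not tested are not given here. Within single groups Ptgfr did not pass the test: the log2 fold change was -0.17 ± 0.21 (SE), adjusted p = 0.8, in the Tppp3 and Ccl11 group, 0.057 ± 0.25 (SE), adjusted p = 0.981, in the tenocyte group, and -0.60 ± 0.53 (SE), adjusted p = 0.62, in the Dmknhi group. In the unnamed group led by Igfbp2 and Fam213a it was -0.17 ± 0.31 (SE), adjusted p = 0.901.

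Ptgs2 in fibroblast-like cells measured 766, 367 and 538 CPM in the 3 WT mice and 876, 775 and 372 CPM in the 3 Aromhum mice. The genotypes overlapped, and Aromhum replicate 3 lay near the lowest WT mouse (log2 fold change 0.26 ± 0.40 (SE), adjusted p = 0.678). Ptges measured 59.8 ± 5.25 CPM in WT and 61.8 ± 4.21 CPM in Aromhum mice (SD, n = 3 each) (log2 fold change 0.038 ± 0.12 (SE), adjusted p = 0.843).

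Ptgis measured 249, 204 and 258 CPM in the 3 WT mice and 340.4, 345 and 321 CPM in the 3 Aromhum mice. No Aromhum mouse overlapped a WT mouse, where 36.9% of all genes did not overlap. The test missed the threshold (log2 fold change 0.49 ± 0.14 (SE), adjusted p = 0.0568). Hpgd measured 80, 159 and 55.2 CPM in the 3 WT mice and 38.2, 55.5 and 28.1 CPM in the 3 Aromhum mice, with WT replicate 2 the highest and the genotypes overlapping at Aromhum replicate 2 (log2 fold change -1.26 ± 0.41 (SE), adjusted p = 0.0782), and without WT replicate 2 its log2 fold change was -0.78 (adjusted p = 0.213). Under DESeq2 both passed, at adjusted p = 0.0122 for Ptgis and 0.00532 for Hpgd, where 20.2% of all genes passed in that tool.

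The groups of the reclustered fibroblast-like cells were named by the markers that the study gives for its fibroblast groups, including the hernia-associated fibroblasts (HAFs) that it describes. Of these groups, 4 had at least 20 cells in each mouse. Of 23 member tests in them 1 passed, Hpgd in the unnamed group led by Igfbp2 and Fam213a, where 0.747% of all genes passed. The share of all genes that passed was 0.713% in the Dmknhi group, 0.29% in the tenocyte group and 0.351% in the group marked by Tppp3 and Ccl11. Hpgd measured 24.3, 15.2 and 18 CPM in the 3 WT mice and 8.54, 0 and 1.99 CPM in the 3 Aromhum mice there (log2 fold change -3.07 ± 0.60 (SE), adjusted p = 0.0392), on 130 UMIs. Leaving out WT replicate 1 or 3 or any Aromhum mouse took the adjusted p above the threshold, to between 0.061 and 0.265.

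Among the 4 groups Hpgd was highest in the one marked by Tppp3 and Ccl11, at 158 ± 71 CPM in WT and 107 ± 46.8 CPM in Aromhum mice (SD, n = 3 each) (log2 fold change -0.65 ± 0.35 (SE), adjusted p = 0.513). Ptgs2 measured 406 ± 66.8 CPM in WT and 260 ± 72.5 CPM in Aromhum mice there (SD, n = 3 each) (log2 fold change -0.70 ± 0.21 (SE), adjusted p = 0.234). Same-numbered mice had correlations of 0.18, 0.11 and 0.24 in that group. With the replicate number as a block both genes passed there, where 1.71% of all gene tests in the 4 groups did. In the Dmknhi group Ptgis measured 171 ± 21.2 CPM in WT and 267 ± 27.3 CPM in Aromhum mice (SD, n = 3 each) (log2 fold change 0.62 ± 0.17 (SE), adjusted p = 0.113). The Mmp3hi HAFs numbered 38, 0 and 0 cells in WT mice against 681, 1218 and 12 in Aromhum mice, too few in WT for a test. Their Ptgs2 level was 1699, 1342 and 1453 CPM in the Aromhum mice and 479 CPM in WT replicate 1. The value of Aromhum replicate 3 rests on the fewest cells of these.

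In mesothelial cells Ptgs2 and Ptgis were higher and Hpgd lower in all 3 Aromhum mice than in any WT mouse, but 0 of the 6 members tested passed the adjusted threshold in edgeR, where 0.222% of all genes did and 25.4% did not overlap. At an unadjusted p under 0.05 the number was 4 of 6, against 20.5% of all genes, and DESeq2 called 3, against 5.4%. Ptgs2 measured 94.3, 41.3 and 86.7 CPM in the 3 WT mice and 399.8, 549 and 152 CPM in the 3 Aromhum mice. The lowest Aromhum mouse, replicate 3, still lay above the highest WT mouse (log2 fold change 2.42 ± 0.48 (SE), adjusted p = 0.0667). Leaving out Aromhum replicate 3 brought the test past the threshold (log2 fold change 2.79, adjusted p = 0.00182), where 13.3% of all genes then passed.

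Ptgis, the prostacyclin synthase, measured 730.2, 678 and 607 CPM in the 3 WT mice and 1142, 1078 and 945 CPM in the 3 Aromhum mice in mesothelial cells (log2 fold change 0.73 ± 0.15 (SE), adjusted p = 0.0698). Hpgd measured 31, 167 and 56.8 CPM in the 3 WT mice and 22.1, 22.7 and 19.7 CPM in the 3 Aromhum mice, with the WT mice widely spread and the Aromhum mice close together (log2 fold change -1.96 ± 0.51 (SE), adjusted p = 0.0976). The highest value is that of WT replicate 2, the library with the largest share of barcodes over 5% mitochondrial UMIs, and without it the log2 fold change was -0.88 (adjusted p = 0.21). The 7 fibroblast markers summed to 16458 to 17760.2 CPM in WT and 19657 to 20489.6 CPM in Aromhum mice in mesothelial cells, and their part in these differences was not tested. The fibroblast-like level of Ptgis, scaled by the mesothelial share of that marker sum, was 91.8 CPM in WT and 147 CPM in Aromhum mice, beside measured means of 672 and 1055 CPM. In the same way the scaled level of Ptgs2 was 214 CPM in WT and 289.6 CPM in Aromhum mice, beside 74.1 and 367 CPM measured. For Ptges it was 23.2 CPM in WT and 27.1 CPM in Aromhum mice, beside 4.28 and 6.5 CPM, and for Hpgd 37.8 CPM in WT and 17.7 CPM in Aromhum mice, beside 84.9 and 21.5 CPM.

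To compare cells at equal depth, the share of cells with at least 1 Ptgs2 UMI was computed for 1000 UMIs per cell, leaving out 2444 WT and 1967 Aromhum barcodes below that depth. In mesothelial cells it was 5.33, 2.54 and 3.88% in WT mice against 23, 28.6 and 9.23% in Aromhum mice, against 18.6% and 55.3% as means without thinning. The exact permutation test gave a 2-sided p of 0.1, the smallest that 3 against 3 mice allow. In muscle stem cells and myoblasts, where Ptgs2 was lowest among the 14 named types, it was 0.354, 0.181 and 0.317% in WT mice against 1.22, 1.64 and 0.896% in Aromhum mice, at median depths of 3169 to 4907 UMIs, against 7475 to 12909 in mesothelial cells.

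**Figure D3:**
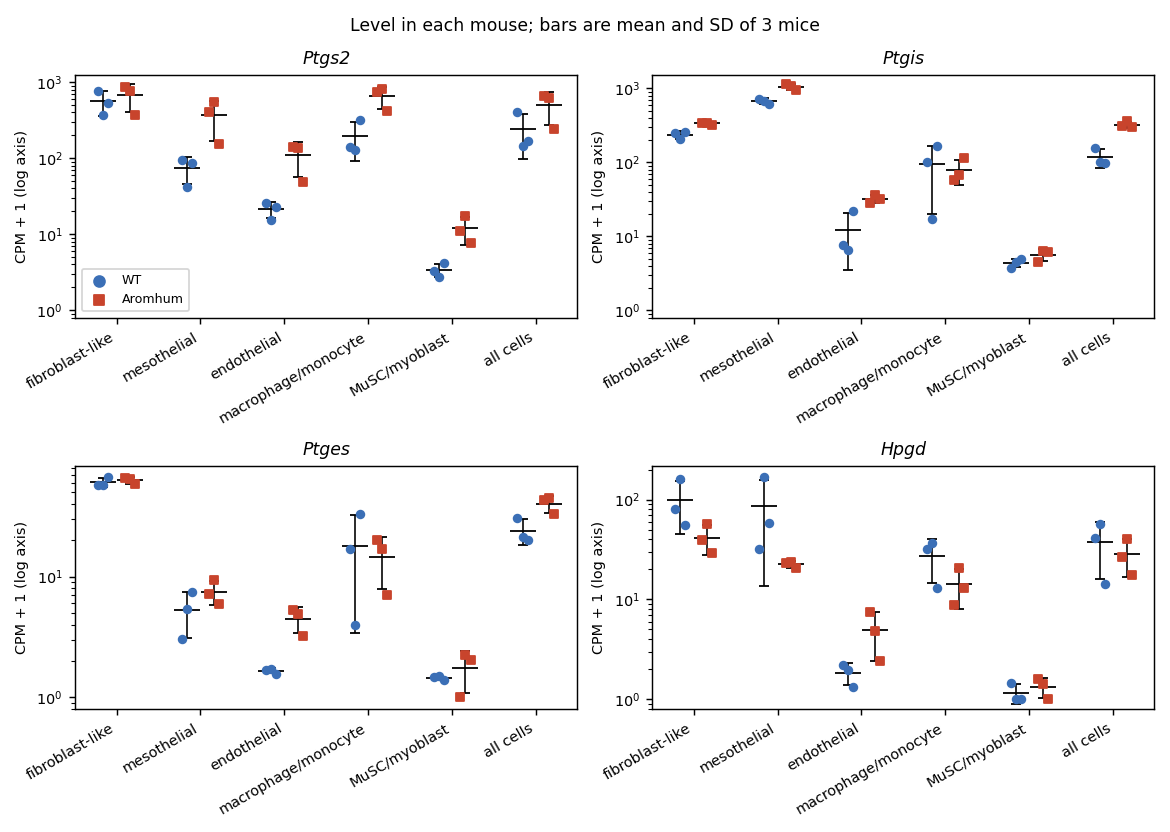
Level of Ptgs2, Ptgis, Ptges and Hpgd in each mouse (WT circles, Aromhum squares) in 5 cell types and in all cells, as CPM + 1 on a log axis, with black bars for mean and SD of 3 mice. Mesothelial Ptgs2 and Ptgis lie higher in every Aromhum mouse than in every WT mouse, and fibroblast-like Ptgs2 overlaps.

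Of the named types, endothelial cells had the most members past the threshold. Ptgs2, Ptges and Hpgd were higher in Aromhum mice, 3 of the 5 members tested, where 18.7% of all genes passed, 10.5% rose, and 40.3% did not overlap. Ptgs2 measured 24.6, 14.6 and 21.7 CPM in the 3 WT mice and 140.0, 137 and 47.2 CPM in the 3 Aromhum mice. Every Aromhum mouse lay above every WT mouse (log2 fold change 2.33 ± 0.38 (SE), adjusted p = 0.00578), and the call held in each of the 16 alternatives run. Ptges rose from 0.659 to 3.47 CPM (log2 fold change 2.31 ± 0.34 (SE), adjusted p = 0.00429) on 147 UMIs, and Hpgd from 0.832 to 3.92 CPM (log2 fold change 2.20 ± 0.60 (SE), adjusted p = 0.0341) on 166 UMIs. The WT counts of Ptges and Hpgd alone would not have met the filter on low counts, which both passed with those of the Aromhum mice. The Hpgd call was lost without WT replicate 2 or 3 or Aromhum replicate 1 or 2, at log2 fold changes of 2.32, 1.77, 1.58 and 2.22. With blocks of the deposited column order in place of clusters, an alternative chosen after seeing the data, it was -0.017 (adjusted p = 0.989) and Ptges was 1.36 (adjusted p = 0.0882). The endothelial type included a cluster of 383 barcodes led by Ube2c, Birc5 and Top2a. These barcodes held, at the median, 2.1 times the median UMI count of their own sample. A column block of 516 barcodes led by the same genes was named macrophage/monocyte. The part of such barcodes in the endothelial values was not tested.

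Fibroblast markers moved with these endothelial results. All 7 were higher in Aromhum endothelial cells, summing to 358 to 502 CPM in WT and 1712 to 4237 CPM in Aromhum mice. Scaled by that sum, the fibroblast-like level of Ptgs2 would amount to 5.19 CPM in WT and 49.8 CPM in Aromhum mice in endothelial cells, beside the measured 20.3 and 108 CPM. The scaled level of Ptges was 0.572 CPM in WT and 4.24 CPM in Aromhum mice and that of Hpgd 1.01 CPM in WT and 2.9 CPM in Aromhum mice. The part of fibroblast RNA in the endothelial differences was not tested. Ptgs1 measured 53.7 ± 14.5 CPM in WT and 84.4 ± 19.7 CPM in Aromhum mice (SD, n = 3 each) (log2 fold change 0.59 ± 0.24 (SE), adjusted p = 0.12).

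In endothelial cells every same-numbered pair of mice deviated together (correlations of 0.14, 0.14 and 0.29). With the replicate number as a block, Ptgs1 (log2 fold change 0.60, adjusted p = 0.00857) and Ptgis (1.61, adjusted p = 0.0103) passed there too, where 26.0% of all genes did.

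**Figure D4:**
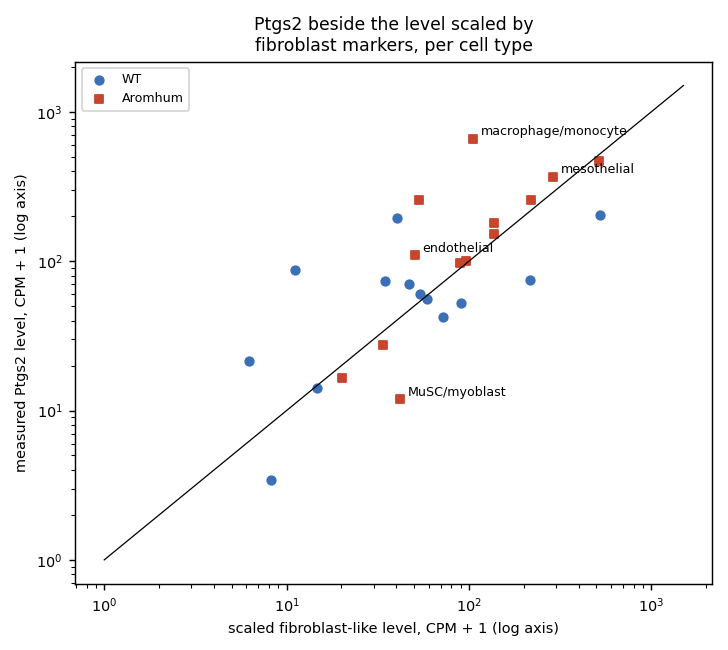
Measured Ptgs2 level of each named cell type (vertical axis, mean CPM + 1 of 3 mice, log) against the fibroblast-like Ptgs2 level scaled by the type's share of fibroblast marker RNA (horizontal axis, mean CPM + 1, log), for WT (circles) and Aromhum (squares), with the line of equality. Macrophages lie above the line in both genotypes and muscle stem cells below it.

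In macrophages and monocytes Ptgs2 measured 141, 127 and 314 CPM in the 3 WT mice and 749, 817 and 416 CPM in the 3 Aromhum mice. All 3 Aromhum mice lay above the WT mice, and the difference missed the threshold (log2 fold change 1.73 ± 0.43 (SE), adjusted p = 0.162), where 0.688% of all genes passed and 13.7% did not overlap. Macrophages were 0.898% to 2.22% of the barcodes of a WT mouse and 13.4%, 6.47% and 0.936% of those of the Aromhum mice. Fibroblast markers summed to 2304 to 3487 CPM in WT and 6503 to 8209.5 CPM in Aromhum mice, and the scaled Ptgs2 level was 39.2 CPM in WT and 105 CPM in Aromhum mice.

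In muscle stem cells and myoblasts Ptgs2 rose from 2.41 ± 0.684 to 10.9 ± 4.78 CPM (SD, n = 3 each; log2 fold change 2.15 ± 0.40 (SE), adjusted p = 0.0396), on 89 UMIs, where 1.95% of all genes passed. Its WT counts alone would not have met the filter on low counts, which it passed with those of the Aromhum mice. The call was lost without any 1 WT mouse or Aromhum replicate 1 or 2 (adjusted p over the 6 omissions 0.00614 to 0.179) and with the column blocks (adjusted p = 0.267). The leading genes of these cells, beside muscle genes such as Myod1 and Myf5, included the spermatid genes Prm1, Prm2, Tnp1 and Tnp2, which the column blocks set at the head of a block of their own. Together these 4 genes, listed after the clusters were seen, measured 0, 56.6 and 5448 CPM in the 3 WT mice and 0 CPM in each Aromhum mouse, and their part in the muscle stem cell values was not tested. The 7 fibroblast markers, all higher in Aromhum mice, summed to 431 to 689.5 CPM in WT and 1152 to 3918 CPM in Aromhum mice, and the scaled Ptgs2 level, 7.2 CPM in WT and 40.9 CPM in Aromhum mice, exceeded the measured one. The part of these markers was not tested. Ptgds measured 23.6, 25.3 and 33.6 CPM in the 3 WT mice and 12.2, 10.7 and 22.2 CPM in the 3 Aromhum mice in the same cells, lower in all 3 Aromhum mice (log2 fold change -0.93 ± 0.30 (SE), adjusted p = 0.12), and 24% of all genes did not overlap there.

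Ptgs1 rose in the unnamed cluster led by Csf3 and Ackr1, from 19.9 ± 4.73 to 47.9 ± 13.4 CPM (SD, n = 3 each; log2 fold change 1.21 ± 0.26 (SE), adjusted p = 0.0494), where 1.64% of all genes passed. Without any 1 of the WT mice or of Aromhum replicates 1 and 2 the Ptgs1 call was lost (adjusted p over the 6 omissions 0.0031 to 0.184). Its leading genes join those of venular endothelium (Ackr1, Selp, Vwf and Plvap) with Myoc, and its cells held, at the median, 2.21 times the median UMI count of their own sample. The 7 fibroblast markers summed to 25311 to 27796 CPM in WT and 26493 to 38499 CPM in Aromhum mice there, 6 of them higher in Aromhum mice, and the part of mixed barcodes was not tested. In the unnamed cluster led by Gdf10 and Cst3 0 of 4 members passed in edgeR, where 0.24% of all genes did, 1 had an unadjusted p under 0.05, and DESeq2 called 0. In the one led by Tnmd and Fmod 0 of 5 members passed in edgeR, where 1.23% of all genes did, 1 had an unadjusted p under 0.05, and DESeq2 called 0. The unadjusted and DESeq2 counts in the Gdf10 and Tnmd clusters stand without a share of all genes beside them, so nothing is drawn from them.

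Over the 14 named types the members gave 54 tests, of which 5 passed, against 3.94% of all gene tests in these types. They were Ptgs2 in endothelial cells and in muscle stem cells, Ptges and Hpgd in endothelial cells, and Ptgfr in fibroblast-like cells. Of these, Ptgs2 in muscle stem cells and Ptges and Hpgd in endothelial cells met the filter on low counts only with the Aromhum mice. Ptgs2 had a positive log2 fold change in 13 of its 14 types, the exception being lymphatic endothelial cells (log2 fold change -1.50 ± 0.90 (SE), adjusted p = 0.8). The mice are shared by all types, so these signs are not independent. The summed fibroblast markers were also higher in Aromhum mice in several of these types, among them endothelial cells, macrophages and muscle stem cells. The part of fibroblast RNA in these signs was not tested. Ptgis had a positive value in 10 of 12 types and Hpgd in 2 of 5. In perineurial cells Ptgs2 had log2 fold change 1.19 ± 0.24 (SE), adjusted p = 0.0679, and Ptgs1 log2 fold change 1.11 ± 0.36 (SE), adjusted p = 0.33.

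**Figure D5:**
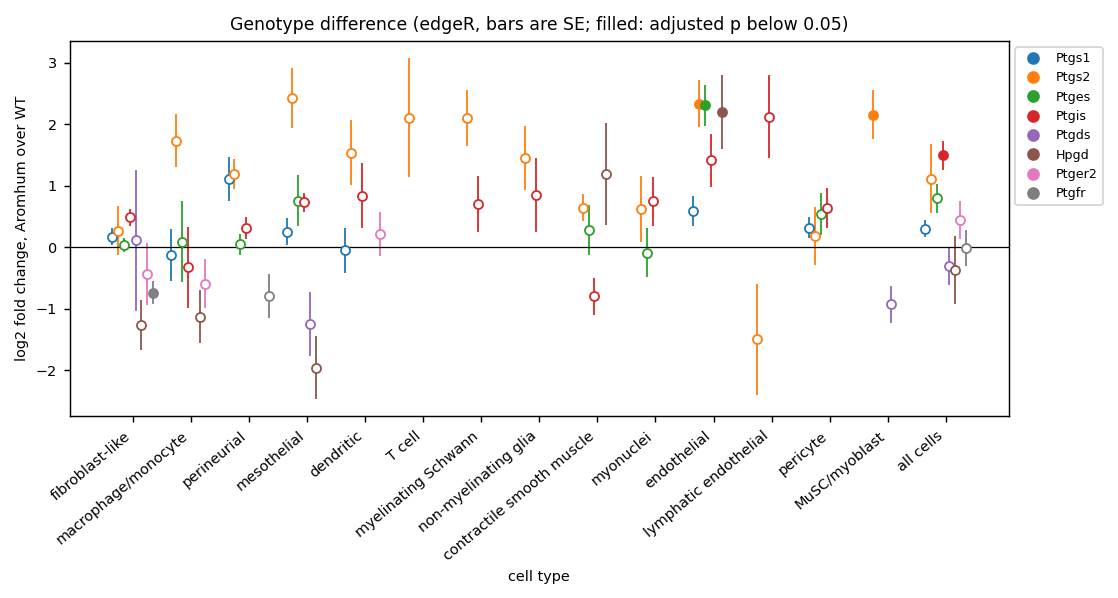
Genotype difference of each member in each named cell type and in all cells, as log2 fold change of Aromhum over WT with SE (edgeR, 3 mice against 3), filled where the adjusted p was below 0.05. The filled points are Ptgs2, Ptges and Hpgd in endothelial cells, Ptgs2 in muscle stem cells, Ptgfr in fibroblast-like cells and Ptgis in all cells.

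Whether the genotype difference of a member was unlike that in fibroblast-like cells was tested in 1 model of both types with the mouse as a block. For Ptgs2 it was larger by 2.10 ± 0.23 (SE) on the log2 scale, adjusted p = 0.0126, in mesothelial cells, where 1.69% of all genes passed this test. It was larger by 2.01 ± 0.15 (SE) on the log2 scale, adjusted p = 9.77e-04, in endothelial cells (15% of all genes). The macrophage difference of Ptgs2 from fibroblast-like cells was 1.61 ± 0.36 (SE) on the log2 scale, adjusted p = 0.0503, where 1.37% of all genes passed. Of 46 such tests of members 8 passed, counting only pairs in which the member passed the filter on low counts in the other type itself, and leaving out 51 pairs that entered the model only through fibroblast-like cells. The shares of all genes cover every gene of the model. The others that passed were Ptges and Hpgd in endothelial cells, Ptgs2 in muscle stem cells (1.05% of all genes), Ptgs2 in myelinating Schwann cells (2.02%), Ptgs2 in T cells (4.33%) and Ptgis in contractile smooth muscle (3.21%). Ptges and Hpgd in endothelial cells and Ptgs2 in muscle stem cells met the filter on low counts there only with the Aromhum mice. Within the study's limits on cells Ptgs2 in endothelial cells was the one of these 8 calls that passed, with 4 of the 8 in types that could not be tested there, and limma called Ptgs2 and Ptges in endothelial cells. The mesothelial call was lost without any 1 WT mouse or without Aromhum replicate 1, with adjusted p over the 6 omissions of 6.43e-04 to 0.0861.

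The other genes of the pathway were counted from lists written for the pathway, with earlier results of these data known. The lists gave 25 further prostaglandin genes in the table and 13 other arachidonic acid enzymes. In fibroblast-like cells 0 of 23 prostaglandin genes tested rose and 2 fell, where 7.82% of all genes rose and 6.1% fell, with a median log2 fold change of 0.038 against 0.013 over all genes. Both that fell are receptors. Ptgir, the prostacyclin receptor, measured 14.7 CPM in WT and 6.18 CPM in Aromhum mice (log2 fold change -1.26 ± 0.23 (SE), adjusted p = 0.0232). Ptger4, the EP4 receptor for prostaglandin E2, measured 14.3 CPM in WT and 6.31 CPM in Aromhum mice (log2 fold change -1.20 ± 0.29 (SE), adjusted p = 0.04). As for Ptgfr, the part of the mix of groups was not tested, and neither passed within a group: in the Tppp3 and Ccl11 group the log2 fold change was -0.31 ± 0.13 (SE), adjusted p = 0.381, for Ptgir and -0.40 ± 0.15 (SE), adjusted p = 0.338, for Ptger4. In the other groups with a test it lay between -0.61 and -0.45 for Ptgir and between -2.20 and -0.49 for Ptger4. Over all fibroblast-like cells both calls were lost within the study's limits on cells (adjusted p = 0.239 and 0.283) and without WT replicate 2, WT replicate 3, Aromhum replicate 1 or Aromhum replicate 2, and that of Ptger4 also without WT replicate 1. Over the 6 omissions the adjusted p was 0.00432 to 0.1 for Ptgir and 0.00273 to 0.142 for Ptger4.

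In endothelial cells, where the fibroblast markers were higher in Aromhum mice as given above and their part in these counts was not tested, 9 of 17 prostaglandin genes rose and 1 fell, against 10.5% and 8.12% of all genes, with a median of 0.42 against -0.021 over all genes. Slco2a1, which carries prostaglandins into cells, measured 79.9 CPM in WT and 225 CPM in Aromhum mice (log2 fold change 1.42 ± 0.28 (SE), adjusted p = 0.0112). Anxa1, an inhibitor of phospholipase A2, measured 222 CPM in WT and 542 CPM in Aromhum mice (log2 fold change 1.21 ± 0.22 (SE), adjusted p = 0.00863), and Pla2g4a, which releases arachidonic acid, 1.67 CPM in WT and 3.8 CPM in Aromhum mice (log2 fold change 1.09 ± 0.31 (SE), adjusted p = 0.0414). The others that rose were Ptgfrn, Ptgr1, Plaa, Akr1b3, Akr1b8 and Abcc4, by 0.42 (Plaa) to 2.63 (Akr1b8) on the log2 scale. Ptger4 was the gene of the list that fell, at 45.5 CPM in WT and 20.9 CPM in Aromhum mice (log2 fold change -1.18 ± 0.24 (SE), adjusted p = 0.0133). Of the other arachidonic acid enzymes 0 of 10 rose and 4 fell in endothelial cells, and 2 of 11 rose and 2 fell in fibroblast-like cells. Cyp4b1, a cytochrome P450, rose in fibroblast-like cells, at 3.39 CPM in WT and 20.2 CPM in Aromhum mice (log2 fold change 2.56 ± 0.30 (SE), adjusted p = 0.0117), and fell in endothelial cells, at 74.7 CPM in WT and 51.8 CPM in Aromhum mice (log2 fold change -0.59 ± 0.17 (SE), adjusted p = 0.0418). Ephx1, Cyp2j6 and Alox12 also fell in endothelial cells, Alox5ap also rose in fibroblast-like cells, and Ephx1 and Cyp2j9 fell there. Of the 14 calls of both lists in endothelial cells 4 passed within the study's limits on cells and 7 with the column blocks. With 1 mouse left out 4 to 14 passed (lowest without Aromhum replicate 2). Of the 6 in fibroblast-like cells 0 passed within the limits and 0 to 6 with 1 mouse left out. Over all gene tests in the named types, 3.94% passed in the main fits and 2.26% within the limits. That share was 3.58% with the column blocks and 0.823% to 8.94% with 1 mouse left out.

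Summed over all cells, 5 of 25 prostaglandin genes rose and 3 fell, against 12.4% and 11.2% of all genes, with a median of 0.39 against 0.018 over all genes. Akr1b3, an aldose reductase that can form prostaglandin F2α, rose, at 150.2 CPM in WT and 435 CPM in Aromhum mice (log2 fold change 1.57 ± 0.25 (SE), adjusted p = 0.018). The receptor Ptger3 rose, at 3.53 CPM in WT and 7.22 CPM in Aromhum mice (log2 fold change 1.07 ± 0.18 (SE), adjusted p = 0.018), though its log2 fold change was negative in each of the 3 named types where it was tested: mesothelial cells, where it was highest, had 94.3 CPM in WT and 57.4 CPM in Aromhum mice (log2 fold change -0.64 ± 0.16 (SE), adjusted p = 0.0863), contractile smooth muscle -1.49 and fibroblast-like cells -0.20 on the log2 scale. Mesothelial cells were 1.31% in WT and 6.79% in Aromhum mice of all barcodes, and the part of the mix of cell types in these all-cell values was not tested. Ptger4, Ptgir and the thromboxane receptor Tbxa2r fell by 1.38, 0.60 and 1.18 on the log2 scale. Ptgfrn, Ptgr1 and Akr1b8 rose as well, by 0.70, 0.86 and 1.06. Of the other arachidonic acid enzymes Faah rose and Cyp2j6, Cyp2j9, Cyp4b1 and Mgll fell, 5 of 13 tested. Of these 13 calls over all cells, 0 passed within the study's limits on cells or without WT replicate 2, WT replicate 3, Aromhum replicate 1 or Aromhum replicate 2 (adjusted p of 0.352 to 0.838 within the limits and 0.0618 to 0.141 over the omissions), settings under which at most 2 of all genes passed. In mesothelial cells 0 of 15 passed in edgeR, 2 had an unadjusted p under 0.05, and DESeq2 called 1. Over all genes these shares were 0.222%, 20.5% and 5.4%.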

How the data were processed

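The authors sequenced 10x Genomics 3' libraries of 6 mice and deposited 1 table of raw UMI counts, not normalized, per gene and barcode. The submitters' processing notes name Cell Ranger 3.0.2 and mm10, and the human CYP19A1 sequence was added to the reference. All 63647 barcodes were kept, and the study's limits (200 to 2500 genes, at least 1000 UMIs, at most 5% mitochondrial UMIs) were an alternative that leaves 18852, without the study's further removal of outliers by median absolute deviation.

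Barcodes were clustered without the members and the pathway lists (2000 variable genes, 30 principal components, Leiden at resolution 0.8, leidenalg 0.10.2). Doublets marked by Scrublet were left out as an alternative only, and in WT replicate 3 it marked 1 of 4576 barcodes and so did not work there.

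The UMIs of each type were added up within a mouse, and types reaching 20 cells in all mice were tested with edgeR 4.0.16 in R 4.3.3 (TMM, filterByExpr, quasi-likelihood fit, Benjamini-Hochberg over all genes, threshold 0.05), which was also tested on simulated data. Levels needed 10 cells and were compared between types on log2(CPM + 1). Members were named in types where a result turned on them and otherwise given by counts, genes of the other lists were named among those that passed, and Hpgds, Tbxas1 and the other receptors by level, with the 3 genes most like each member. A gene of the last kind and an unnamed cluster are not reported here. DESeq2 1.42.0 and limma 3.58.1 were alternatives. The number of mice, 3 per genotype, limits the precision of the abundant members. The members and lists were chosen with earlier results of these data known. The study processed 1 WT and 1 Aromhum littermate per date, but the labels do not tie replicate numbers to dates.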

Additional observations from a re-analysis of the deposited data

Results flagged for a closer look

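The genotype difference of 4 members was unlike that in fibroblast-like cells in at least 1 other cell type, by the test of the difference itself (edgeR, adjusted over all genes). For Ptgs2 the excess over fibroblast-like cells on the log2 scale was 2.01 ± 0.15 (SE), adjusted p = 9.77e-04 in endothelial cells, 2.10 ± 0.23 (SE), adjusted p = 0.0126 in mesothelial cells and 1.85 ± 0.36 (SE), adjusted p = 0.0444 in muscle stem cells and myoblasts. It was 1.89 ± 0.46 (SE), adjusted p = 0.0298 in myelinating Schwann cells and 1.70 ± 0.45 (SE), adjusted p = 0.00968 in T cells. For Ptges it was 2.28 ± 0.24 (SE), adjusted p = 0.00161 and for Hpgd 3.48 ± 0.50 (SE), adjusted p = 0.00433 in endothelial cells. For Ptgis it was -1.19 ± 0.28 (SE), adjusted p = 0.0462 in contractile smooth muscle, where the Aromhum value was the lower one. Ptges and Hpgd in endothelial cells and Ptgs2 in muscle stem cells met the filter on low counts in those types only with the Aromhum mice.

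Several of these calls were lost under other settings. Within the study's limits on cells the excess of Ptgs2 in endothelial cells was 2.47 (adjusted p = 0.0185), that of Ptges 0.51 (adjusted p = 0.781), that of Hpgd 1.76 (adjusted p = 0.24) and that of Ptgs2 in muscle stem cells 1.26 (adjusted p = 0.763). The other 4 were in types with too few cells there. With limma, Ptgs2 and Ptges in endothelial cells passed, and the other 6 had adjusted p of 0.0953 to 0.601. With 1 mouse left out, the 3 endothelial calls passed in each of the 6 omissions. The call of Ptgs2 in mesothelial cells was lost without any 1 WT mouse or without Aromhum replicate 1 (adjusted p over the omissions 6.43e-04 to 0.0861). Those of Ptgs2 in muscle stem cells (0.0257 to 0.178) and of Ptgis in contractile smooth muscle (0.00256 to 0.195) passed only without Aromhum replicate 3, and that of Ptgs2 in myelinating Schwann cells was lost without WT replicate 1 or Aromhum replicate 3 (7.90e-05 to 0.089).

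The 7 fibroblast markers summed to 199.9 to 5338 CPM in WT and 4631 to 19772 CPM in Aromhum mice in T cells and to 4817 to 6030.3 CPM in WT and 8014 to 11079.8 CPM in Aromhum mice in myelinating Schwann cells, and all 7 were higher in the Aromhum mice in both. All 7 were also higher in Aromhum endothelial cells and muscle stem cells, and their sum was higher in Aromhum mesothelial cells, as given above. The part of fibroblast markers in these results was not tested. T cells numbered 53, 54 and 20 cells in WT mice against 83, 181 and 31 in Aromhum mice. Over all genes the excess in T cells over fibroblast-like cells had a median of 0.363 on the log2 scale. Tested within T cells alone, Ptgs2 did not reach an unadjusted p under 0.05 (edgeR). Without WT replicate 2 the T cell excess of Ptgs2 was 1.19 (adjusted p = 0.141), and without Aromhum replicate 1 it was 0.92 (adjusted p = 0.663).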

How the results depend on the processing

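Each number of member calls is followed by the share of all gene tests called. Of the member tests in the named types, 5 (3.94%) passed in edgeR, against 12 (5.76%) in DESeq2, 16 (3.1%) with no filter on low counts, 2 (2.26%) within the study's limits on cells, where 7 of the 14 types could be tested, and 2 to 14 (0.823% to 8.94%) with 1 mouse left out. In the fibroblast-like groups 1 (0.518%) passed, against 3 (1.73%) in DESeq2, 0 (0.105%) within the limits and 0 (0.374%) within them without the upper limit on genes, each in 3 of 4 groups, and 0 to 2 (0.0214% to 3.01%) with 1 mouse left out. Over all cells 1 (23.6%) passed, against 2 (34%) in DESeq2, 0 (0%) within the limits and 0 to 2 (0% to 31.1%) with 1 mouse left out. Of the tests against fibroblast-like cells 8 (2.79%) passed, against 2 (1.31%) with limma and 5 to 9 (1.06% to 6.38%) with 1 mouse left out. Within the limits 6 of 13 types could be tested and 3 (0.816%) passed, Ptgs2 in endothelial, lymphatic endothelial and macrophage cells. The cause of these changes was not tested. With the replicate number as a block, the calls numbered 15 (6.26%) in the named types, 3 (1.71%) in the fibroblast-like groups and 2 (26.1%) over all cells. The calls added were Ptgs2 in contractile smooth muscle, dendritic, myelinating Schwann and perineurial cells, Ptgis in contractile smooth muscle (lower), endothelial and mesothelial cells, Ptgs1 in endothelial cells, Hpgd in fibroblast-like cells (lower), Ptgds in muscle stem cells (lower), Ptgs2 and Hpgd (lower) in the Tppp3 and Ccl11 group, and Ptges over all cells. All 3 same-numbered correlations were over 0.1 in 4 of the 14 named types and in the Tppp3 and Ccl11 group. This was not so over all cells (0.25, -0.024 and 0.30) or in fibroblast-like cells (0.22, -0.13 and 0.17), so the numbers were not taken to pair the mice. Values that changed sign were those of Ptgds in all cells (0.33, within the limits without the upper limit on genes), Hpgd in endothelial (-0.017, column blocks), Ptges in macrophage/monocyte (-0.21, DESeq2), Ptges in macrophage/monocyte (-0.17, doublets left out), Ptgis in macrophage/monocyte (0.020, with the replicate block), Ptgis in macrophage/monocyte (0.82, column blocks), Ptgs1 in macrophage/monocyte (0.12, column blocks), highest cell type of Ptgds (2.09, within the limits), highest cell type of Ptgfr (-0.13, within the limits). With 1 mouse left out, the sign changed for Hpgd in all cells (-0.77 to 0.038), Ptgds in fibroblast-like (-0.79 to 1.62), Ptges in fibroblast-like (-0.026 to 0.11), Ptges in macrophage/monocyte (-0.55 to 0.74), Ptgfr in all cells (-0.21 to 0.23), Ptgis in macrophage/monocyte (-0.88 to 0.35), Ptgs1 in macrophage/monocyte (-0.59 to 0.25), highest cell type of Ptgds (-0.54 to 0.081), highest cell type of Ptgfr (-0.0036 to 0.23), highest cell type of Ptgs1 (-0.18 to 0.19). Of these values, Hpgd in endothelial cells had passed the test and the others had not. The column blocks are blocks of the deposited column order, chosen after seeing the data. Within the limits the excess of Ptges in endothelial cells fell to 0.51 (adjusted p = 0.781). Depth limits Ptger2, Ptgds and members at a few CPM, such as Ptges and Hpgd in endothelial cells, and within the limits the mesothelial cells of 2 WT mice were under the minimum of 20, so no mesothelial test was run there.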

Other observations

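Hpgds, the hematopoietic prostaglandin D synthase, measured 110.1 ± 45.4 CPM in WT and 105 ± 42.1 CPM in Aromhum mice (SD, n = 3 each) in macrophages and 11.8 ± 0.317 CPM in WT and 14.4 ± 3.73 CPM in Aromhum mice (SD, n = 3 each) in dendritic cells. Tbxas1, the thromboxane synthase, measured 59.6 ± 23.2 CPM in WT and 72.9 ± 23 CPM in Aromhum mice (SD, n = 3 each) in macrophages and 82.1 ± 12 CPM in WT and 81.8 ± 19.5 CPM in Aromhum mice (SD, n = 3 each) in dendritic cells. Neither differed between genotypes past the threshold in macrophages (log2 fold change -0.075 ± 0.40 (SE), adjusted p = 0.999 for Hpgds and log2 fold change 0.25 ± 0.33 (SE), adjusted p = 0.907 for Tbxas1, edgeR).

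Ptger3, the EP3 receptor, measured 104, 86.1 and 93.2 CPM in the 3 WT mice and 68.3, 51.8 and 52 CPM in the 3 Aromhum mice in mesothelial cells. All WT mice lay above all Aromhum mice, and the test missed the threshold (log2 fold change -0.64 ± 0.16 (SE), adjusted p = 0.0863, edgeR). Of all genes at 1 CPM or more in these cells, 25.4% did not overlap between genotypes. Ptgir measured 19.1 ± 6.6 CPM in WT and 38.1 ± 12.7 CPM in Aromhum mice (SD, n = 3 each) in contractile smooth muscle (log2 fold change 0.90 ± 0.30 (SE), adjusted p = 0.128, edgeR).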
